A study of Mus musculus with 8 samples.

Results

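The genes described here are 10 transcripts of the endothelial cells that line brain vessels: Cldn5, Ocln, Esam, Cdh5, Pecam1, Slco1a4, Abcb1a, Flt1, Tek and Ly6c1. They were taken by gene name from 13996 genes with FPKM values (fragments counted per length of transcript and per sequencing depth) in mouse brain cortex. All 10 were found, each once, and 10 of 10 entered the test, which took genes with an average of 1 FPKM or more and no value of 0. The mice were male C57BL/6, bought at 8 weeks of age and then fed for 8 weeks with a conventional diet (normal, 4 mice) or with a diet of 60% fat by weight (high fat diet, HFD, 4 mice). At 16 weeks the HFD mice were heavier and tolerated glucose less well, and rRNA-depleted RNA of each cortex gave 1 stranded paired-end library. The cortex was not sorted into cells, so the endothelium is seen only through its transcripts in whole tissue.

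Brain endothelial cells form the blood-brain barrier. Claudin-5 and occludin seal the gaps between neighbouring cells, VE-cadherin, PECAM-1 and ESAM hold the cells together, and transporters in their membranes carry substrates or pump drugs back into the blood. VEGF and angiopoietins, made largely by surrounding cells, act on the endothelium through receptors that include those encoded by Flt1 and Tek. In bulk tissue fewer endothelial cells and less RNA per endothelial cell cannot be told apart.

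The diets were compared with limma on log2(FPKM + 0.1). A gene is said to have fallen or risen in HFD mice when its p, adjusted by the Benjamini-Hochberg method over all 13982 genes tested, was below 0.05. Of the 10 genes, 4 fell (Ocln, Cldn5, Slco1a4 and Abcb1a), 1 rose (Ly6c1) and 5 did not pass (Tek, Esam, Pecam1, Flt1 and Cdh5). By the same rule 15.3% of all genes tested fell and 17.7% rose. The genes that fell encode the sealing proteins and the transporters of the set. Their log2 differences ran from -0.63 (Ocln) to -0.19 (Abcb1a), while the receptor gene Tek, just outside the threshold, was at -0.23, and no difference between roles was tested. The changes were small: with the higher mean required to be over 1.5 times the lower as well (from the fitted log2 difference), 1 gene was lower (Ocln) and 0 were higher, against 2.9% and 4.23% of all genes tested. All 4 HFD mice lay below all 4 normal mice for 4 genes (Cldn5, Slco1a4, Abcb1a and Tek) and above them for 1 (Ly6c1), and 14.7% and 17.2% of all genes tested were separated in these directions. The median log2 difference (HFD minus normal) was -0.21 over the 10 genes and 0.0031 over all genes tested.

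**Figure D1:**
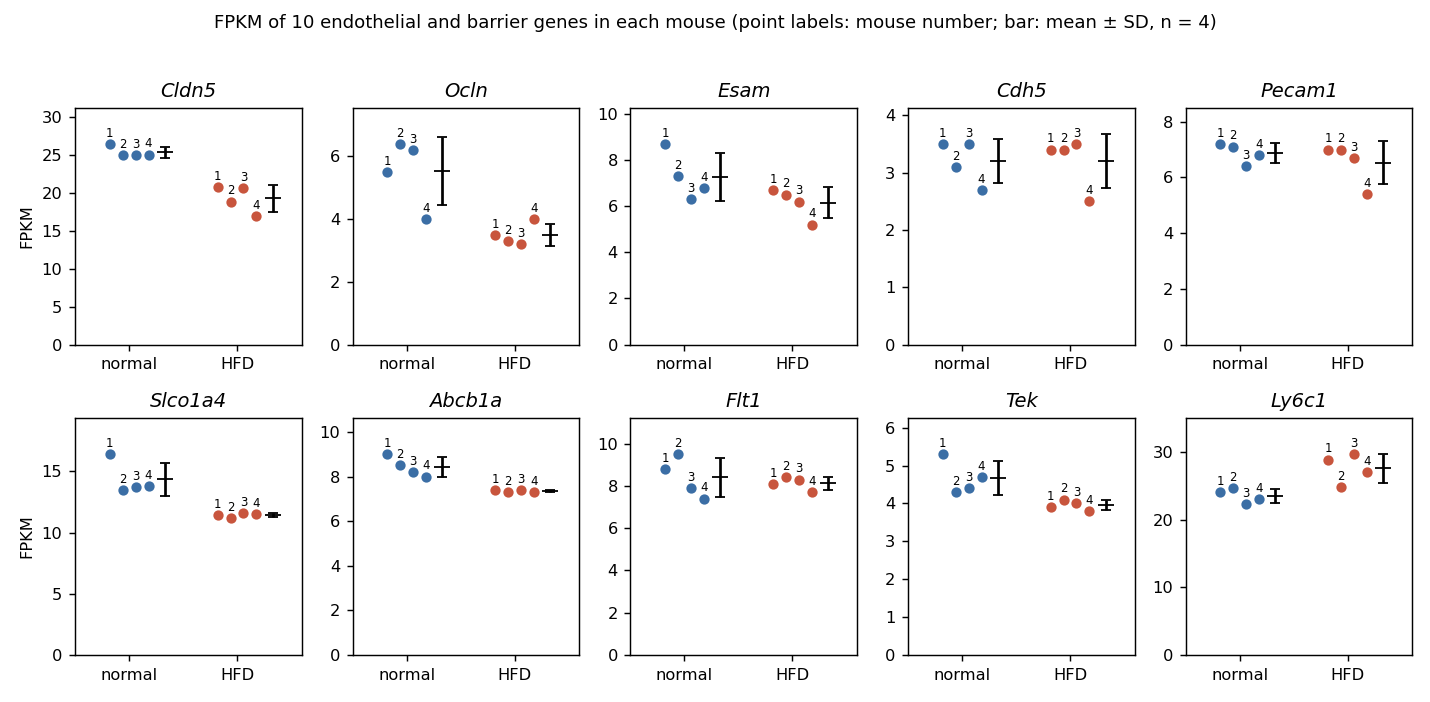
FPKM of the 10 genes (vertical axes, each from 0) in the 4 normal and 4 HFD mice, with the mean ± SD of each diet. Cldn5, Slco1a4, Abcb1a and Tek lie lower in every HFD mouse than in any normal mouse, Ly6c1 lies higher, and the other 5 genes overlap.

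Transcripts of other cells and regions also differed between these libraries, and their part in the differences of the 10 genes was not tested. The summed FPKM of 7 striatal markers was 205 to 375.8 in normal mice and 58 to 68.3 in HFD mice, and that of 8 myelin markers was 2114.9 to 3487.2 and 1458.1 to 2025.9. The sum of 7 cerebellar markers was 30.9, 281, 376.6 and 105.7 in normal mice 1 to 4 and 22.1 to 29.1 in HFD mice. Choroid plexus markers (8 genes) summed to 346.3 to 733.2 in normal mice, whereas HFD mice 1 to 4 held 77.9, 22, 28.5 and 948.9. No defining marker of these lists was listed at 0 except Gabra6, a cerebellar gene, in HFD mouse 1. Blood markers (5 genes) summed to 239.2 to 479.7 in normal and 199.1 to 247.4 in HFD mice, and 10 microglia and macrophage markers to 144.5 to 174.5 and 154.1 to 164.9. The 10 endothelial genes together summed to 102.3 to 114.9 and 91.3 to 101.2. Without normal mice 2 and 3, the mice with the most cerebellar RNA, 3 of the 10 genes fell (Cldn5, Slco1a4 and Tek) and 0 rose. In that fit 2736 of 13904 genes tested were called in either direction, against 4626 of 13982 with all mice.

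**Figure D2:**
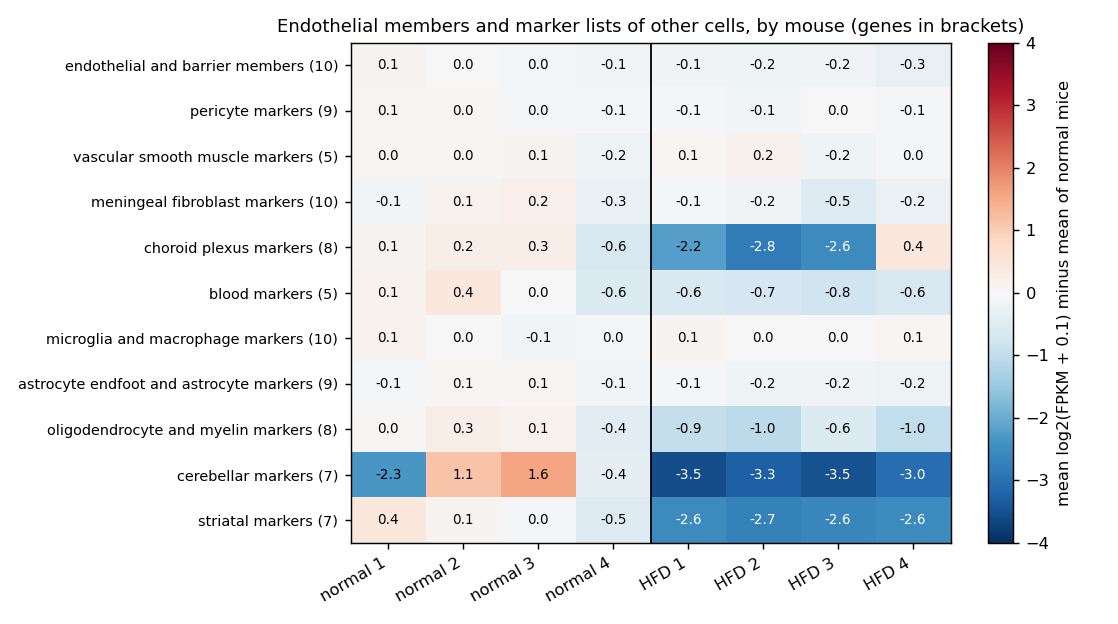
Mean log2(FPKM + 0.1) of the 10 endothelial genes and of marker lists of other cells or regions in each mouse, minus the mean of the normal mice (colour and printed value). The endothelial values lie between -0.11 and 0.11 in normal mice and between -0.29 and -0.14 in HFD mice. The striatal, myelin, blood and cerebellar values are also lower in the 4 HFD mice than in any normal mouse. The choroid plexus values are low in HFD mice 1 to 3 but not in HFD mouse 4.

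Cldn5, which encodes the main sealing claudin of brain endothelium, was the most abundant of the 10 transcripts in normal mice. The gene is annotated as a single exon (plus strand of chromosome 16, 18776847 to 18778262, GRCm38, the build of all positions given here). Its FPKM was 26.4, 24.9, 24.9 and 25 in normal mice 1 to 4 and 20.7, 18.8, 20.6 and 16.9 in HFD mice 1 to 4. No value overlapped between the diets, and HFD mouse 4 was the lowest of all. Cldn5 fell from 25.3 ± 0.735 (SD, n = 4) to 19.25 ± 1.79 (SD, n = 4), a log2 difference of -0.40 with a standard error of 0.07 (limma, adjusted p = 0.00293). With each mouse left out in turn it stayed past the threshold, at -0.43 to -0.34.

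Ocln encodes occludin, a membrane protein of tight junctions in endothelia and epithelia (minus strand of chromosome 13, 100496507 to 100552718). Its FPKM was 5.5, 6.4, 6.2 and 4 in normal mice and 3.5, 3.3, 3.2 and 4 in HFD mice, so that normal mouse 4 and HFD mouse 4 met at the same value. Ocln fell from 5.525 ± 1.09 to 3.5 ± 0.356, a log2 difference of -0.63 with a standard error of 0.14 (limma, adjusted p = 0.0104), the largest among the 10 genes. Normal mice 2 and 3 were highest in Ocln and in cerebellar markers, and HFD mouse 4, the highest of its diet, held the most choroid plexus RNA. Without normal mice 2 and 3 the log2 difference was -0.42 and no longer passed (limma, adjusted p = 0.0841). The part of these tissues in the Ocln values was not tested.

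Slco1a4, a carrier of organic anions at the barrier (minus strand of chromosome 6, 141805440 to 141856199), had FPKM values of 16.4, 13.5, 13.7 and 13.8 in normal mice and of 11.4, 11.2, 11.6 and 11.5 in HFD mice. The HFD mice lay close together and below every normal mouse, among which normal mouse 1 was highest. Slco1a4 fell from 14.35 ± 1.37 to 11.425 ± 0.171, a log2 difference of -0.32 with a standard error of 0.07 (limma, adjusted p = 0.00662). It passed with each mouse left out, at -0.35 to -0.26. Of the distinct stretches of 100 bases in its annotated transcripts, 0.64% also occur in Slco1a5 or Slco1a1.

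Abcb1a encodes a P-glycoprotein, the pump that returns many drugs from endothelium to blood (plus strand of chromosome 5, 8660077 to 8748575). Normal mice held 9, 8.5, 8.2 and 8 FPKM and HFD mice 7.4, 7.3, 7.4 and 7.3. The diets did not overlap, and the HFD mice were nearly alike. Abcb1a fell from 8.425 ± 0.435 to 7.35 ± 0.0577, a log2 difference of -0.19 with a standard error of 0.06 (limma, adjusted p = 0.0261). The call was lost in 5 of 8 fits with a mouse left out (normal mouse 1 or 2, HFD mouse 1, 2 or 4), where the log2 difference was -0.22 to -0.16 over all 8 and the highest adjusted p 0.0648. It was also lost without normal mice 2 and 3 (limma, adjusted p = 0.0814) and with the replicate number as a block (limma, adjusted p = 0.0662). Of its stretches of 100 bases, 13.4% also occur in Abcb1b, Abcb4 or Gm42686, and the sources used here do not state how reads shared by genes were counted, so its value is uncertain to that extent.

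The other drug pump of the luminal membrane, Abcg2, was at 9.325 ± 1.46 FPKM in normal and 8.25 ± 0.58 in HFD mice and did not pass (limma, adjusted p = 0.245). Slco1c1, a carrier of thyroid hormone related to Slco1a4 and present in astrocytes too, fell from 22.2, 21.4, 18.1 and 17 FPKM in normal mice to 13.9, 14.6, 12.9 and 15.7 in HFD mice, without overlap. This was a log2 difference of -0.45 with a standard error of 0.10 (limma, adjusted p = 0.00681). Abcb1b was not analysed here.

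None of the 3 adhesion genes passed. Cdh5 encodes VE-cadherin, the cadherin of endothelial adherens junctions (plus strand of chromosome 8, 104101625 to 104144511), and was at 3.5, 3.1, 3.5 and 2.7 FPKM in normal mice and 3.4, 3.4, 3.5 and 2.5 in HFD mice. Both diets had a mean of 3.2 FPKM, and the 95% interval of the log2 difference was -0.30 to 0.29 (limma, unadjusted p = 0.973). Pecam1 encodes an adhesion receptor shared by endothelium, platelets and leukocytes (minus strand of chromosome 11, 106654217 to 106750628). It was at 7.2, 7.1, 6.4 and 6.8 FPKM in normal mice and 7, 7, 6.7 and 5.4 in HFD mice, with an interval of -0.28 to 0.12 (limma, unadjusted p = 0.397). HFD mouse 4 was the lowest of its diet in both genes, and without it the log2 differences were 0.11 and 0.0063. Esam encodes an adhesion molecule of endothelial junctions (plus strand of chromosome 9, 37528078 to 37538319) and was at 8.7, 7.3, 6.3 and 6.8 FPKM in normal mice and 6.7, 6.5, 6.2 and 5.2 in HFD mice. Its log2 difference of -0.24 had an interval of -0.49 to 0.02 (limma, unadjusted p = 0.0638, adjusted p = 0.135).

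Flt1 and Tek encode receptors for growth factors. Flt1 (VEGF receptor 1, minus strand of chromosome 5, 147561604 to 147726011) binds VEGF-A, VEGF-B and placental growth factor and was at 8.8, 9.5, 7.9 and 7.4 FPKM in normal mice and 8.1, 8.4, 8.3 and 7.7 in HFD mice, all of them inside the normal range. Its log2 difference was -0.04 with an interval of -0.22 to 0.14 (limma, adjusted p = 0.718). A value per gene does not separate the membrane form of this receptor from its secreted form. Tek (the angiopoietin receptor Tie2, plus strand of chromosome 4, 94739289 to 94874976) was at 5.3, 4.3, 4.4 and 4.7 FPKM in normal mice and 3.9, 4.1, 4 and 3.8 in HFD mice. The diets did not overlap, but at a log2 difference of -0.23 with a standard error of 0.08 Tek lay just outside the threshold (limma, adjusted p = 0.0535). It passed in 3 of 16 alternatives. These were median-of-ratios rescaling, no variance trend and the fit without normal mice 2 and 3 (limma, adjusted p of 0.0494, 0.0401 and 0.0396). Tek passed in 0 of 8 fits with 1 mouse left out (limma, adjusted p up to 0.12). With the replicate block it did not pass either (limma, adjusted p = 0.109).

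Ly6c1, a surface antigen held in the membrane by a lipid anchor and abundant on brain endothelium (minus strand of chromosome 15, 75044018 to 75048830), differed in the other direction. It held 24.1, 24.7, 22.3 and 23.1 FPKM in normal mice and 28.9, 24.8, 29.7 and 27 in HFD mice. All HFD mice lay above all normal mice, but HFD mouse 2 exceeded normal mouse 2 by only 0.1 FPKM, the step to which the values are rounded. Ly6c1 rose from 23.55 ± 1.06 to 27.6 ± 2.18, a log2 difference of 0.23 with a standard error of 0.06 (limma, adjusted p = 0.0236). The call was lost in 3 of 8 fits with a mouse left out (normal mouse 3, HFD mouse 1 or HFD mouse 3), with a log2 difference of 0.19 to 0.28 over all 8 and a highest adjusted p of 0.0657. It was also lost without normal mice 2 and 3 (limma, adjusted p = 0.0777) and with the replicate block (limma, adjusted p = 0.0661). Of its stretches of 100 bases 10.1% also occur in Ly6c2 or Ly6a, which leaves its value uncertain to that extent. The related antigens Ly6a (15.325 ± 1.13 and 17.1 ± 1.63 FPKM) and Ly6e (91.15 ± 11.2 and 100.08 ± 10.5 FPKM) did not pass (limma, adjusted p of 0.148 and 0.302).

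**Figure D3:**
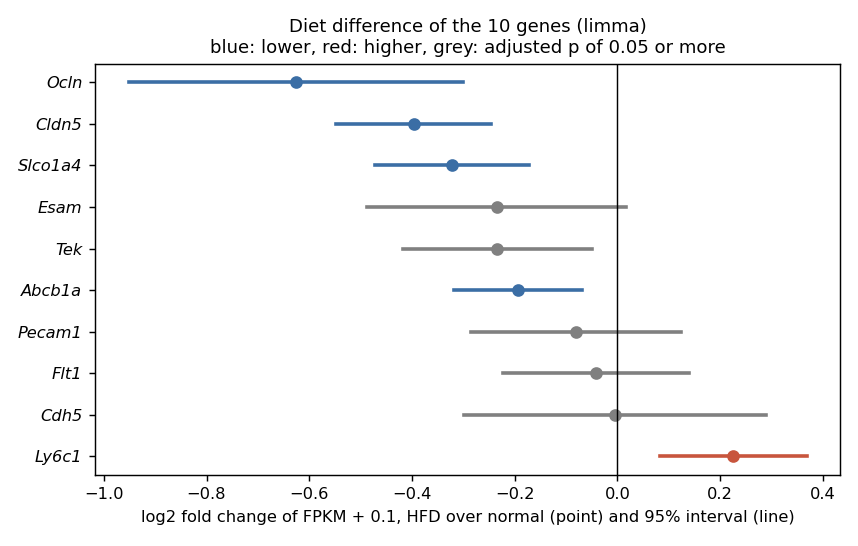
Log2 difference of FPKM + 0.1 (HFD minus normal) for the 10 genes (points) with 95% intervals from limma (lines). Ocln, Cldn5, Slco1a4 and Abcb1a lie below 0 and Ly6c1 above 0 past the adjusted threshold, and the interval of Tek excludes 0 although its adjusted p was 0.0535.

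The sequence around the start of transcription is shown for Cldn5, Slco1a4 and Ly6c1, whose diets did not overlap, and for Flt1, which did not pass, so that the windows of genes that differed and did not can be read side by side. RefSeq (GRCm38.p6) had entries for 7 of the 10 genes, in 9 windows of 300 bases (250 before and 50 after a start site). Capitals mark GGAAG or its reverse complement CTTCC, letters found in sites of ETS factors, the family of ERG and FLI1 in endothelial cells.

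Cldn5, chr16:18776597-18776896, plus strand: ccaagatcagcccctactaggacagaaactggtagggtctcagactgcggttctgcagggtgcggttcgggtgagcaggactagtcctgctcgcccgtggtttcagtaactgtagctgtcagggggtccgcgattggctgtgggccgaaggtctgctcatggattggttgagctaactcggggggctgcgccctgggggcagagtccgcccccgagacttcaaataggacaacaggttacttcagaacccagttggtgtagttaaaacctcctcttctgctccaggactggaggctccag

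Slco1a4, chr6:141856171-141856470, minus strand: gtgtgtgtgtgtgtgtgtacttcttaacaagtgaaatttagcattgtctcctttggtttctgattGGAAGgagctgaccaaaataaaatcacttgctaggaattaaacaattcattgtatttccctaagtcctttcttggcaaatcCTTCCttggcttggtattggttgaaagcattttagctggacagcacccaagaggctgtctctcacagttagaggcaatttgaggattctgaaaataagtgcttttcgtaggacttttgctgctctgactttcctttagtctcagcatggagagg

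Ly6c1, chr15:75048788-75049087, minus strand: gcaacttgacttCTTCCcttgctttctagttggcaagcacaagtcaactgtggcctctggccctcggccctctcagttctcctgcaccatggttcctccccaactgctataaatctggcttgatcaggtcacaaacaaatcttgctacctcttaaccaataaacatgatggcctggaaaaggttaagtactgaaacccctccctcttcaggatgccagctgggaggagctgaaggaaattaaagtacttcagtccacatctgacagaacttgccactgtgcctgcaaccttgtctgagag

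Flt1, chr5:147725962-147726261, minus strand: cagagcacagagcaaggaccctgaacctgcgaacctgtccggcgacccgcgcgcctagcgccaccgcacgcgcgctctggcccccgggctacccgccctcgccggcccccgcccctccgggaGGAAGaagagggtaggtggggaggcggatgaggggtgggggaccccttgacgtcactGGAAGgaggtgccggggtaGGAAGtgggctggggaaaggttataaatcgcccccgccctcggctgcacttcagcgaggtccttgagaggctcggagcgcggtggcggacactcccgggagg

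Searched on both strands, GGAAG occurred 0 times in the window of Cldn5, 2 times in that of Slco1a4, 1 time in the window shown for Ly6c1 and 3 times in that of Flt1. Ly6c1 has another start site, whose overlapping window is not shown and holds 4 matches. GGAAG was present in 6 of the 9 windows and in 71.4% of all 32851 windows. The 9 include the Abcb1a window, at 8566841 to 8567140, which lies before the span given above for that gene. It is kept in each count here. ACAAT, letters of SOX sites, was present in 2 of the 9 and in 31.0% of all, and TGTTT, letters of FOX sites, in 4 of the 9 and in 50.5% of all. G and C made up 58.3% of the Cldn5 window, 40.7% of that of Slco1a4, 49% of that shown for Ly6c1 and 70.7% of that of Flt1. A match describes letters, and no binding was measured.

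To set the genes against a general endothelial transcript of the same mouse, the log2 ratio of each to Pecam1 was taken as a description. For Cldn5 this ratio was 1.86, 1.80, 1.94 and 1.86 in normal mice and 1.55, 1.41, 1.61 and 1.63 in HFD mice, without overlap. For Ly6c1 it was 1.73, 1.78, 1.78 and 1.75 in normal mice and 2.03, 1.81, 2.13 and 2.30 in HFD mice, again without overlap. The mean ratio to Pecam1 was thus lower for Cldn5 and higher for Ly6c1 in HFD mice, with differences of -0.32 and 0.31. Esam was the remaining gene without overlap (-0.02 to 0.27 in normal and -0.11 to -0.05 in HFD mice). The gaps of Esam (-0.02 against -0.05) and Ly6c1 (1.78 against 1.81) are small enough for the rounding of FPKM to 0.1 to close them. How many of all genes were separated in this ratio was not computed. Slco1a4 and Abcb1a did not overlap in FPKM but did so relative to Pecam1, where HFD mouse 4, lowest in Pecam1, stood at 1.08 and 0.43 on the log2 scale.

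**Figure D4:**
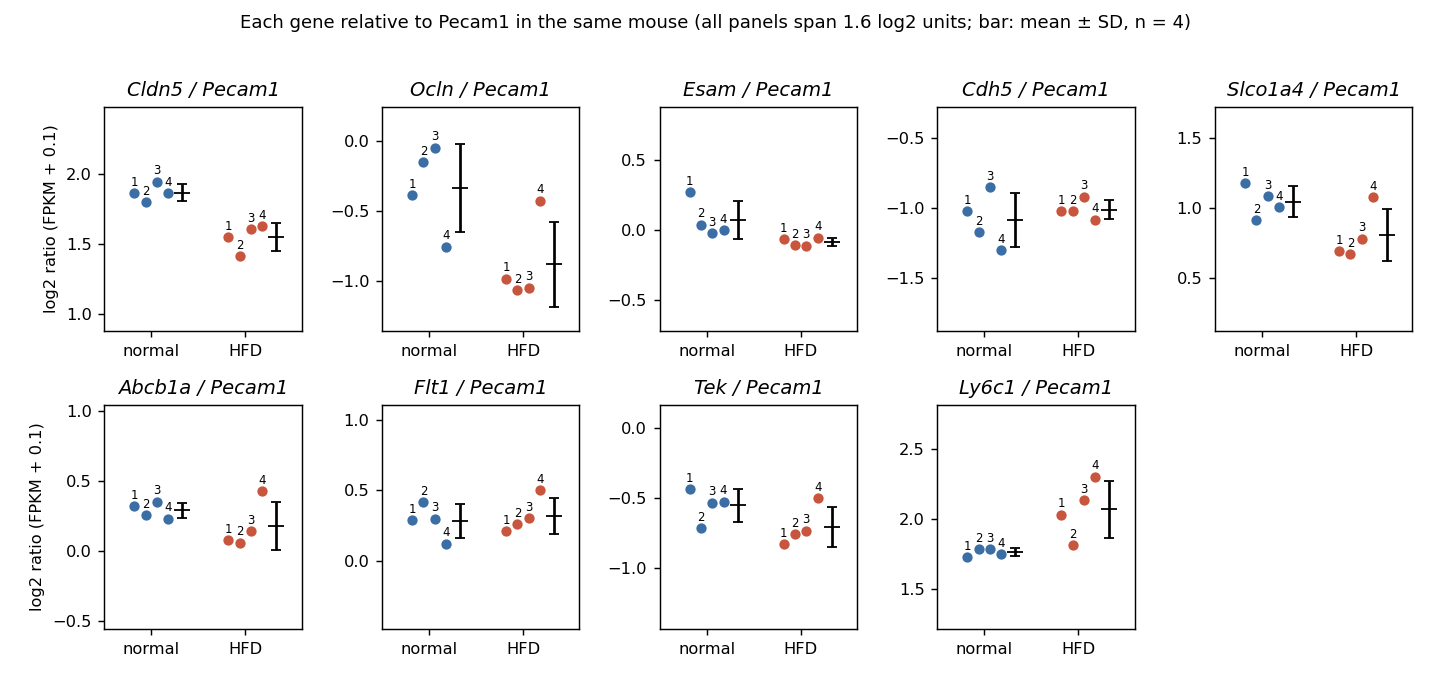
Log2 ratio of FPKM + 0.1 to Pecam1 in the same mouse for the other 9 genes, with the mean ± SD of each diet (n = 4). Cldn5 and Esam are lower and Ly6c1 is higher in each HFD mouse than in any normal mouse, and HFD mouse 4, lowest in Pecam1, stands above the other HFD mice for each gene shown except Cdh5.

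FPKM are per length of transcript, so levels were ordered between genes as a description. The places of Ly6c1 and Abcb1a are uncertain because they share sequence with other genes. In normal mice mean FPKM was highest for Cldn5 (25.3), followed by Ly6c1 (23.55) and Slco1a4 (14.35), with no overlap of mice between them. The lowest Cldn5 value (24.9) and the highest Ly6c1 value (24.7) lay close. In HFD mice Ly6c1 (27.6) lay above Cldn5 (19.25), and Slco1a4 (11.425) was again the third. Below them Abcb1a, Flt1, Esam, Pecam1, Ocln and Tek of normal mice each overlapped their neighbours within this group, from 8.425 to 4.675, and Cdh5 was lowest at 3.2, below Tek in every mouse. In HFD mice Flt1 and then Abcb1a each lay above the next gene in every mouse, Pecam1 overlapped Esam, and Tek (3.95), Ocln (3.5) and Cdh5 overlapped in turn.

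Within a diet the SD was between 0.786% (Abcb1a in HFD mice) and 19.7% (Ocln in normal mice) of the mean. HFD mouse 4 was the sole lowest of its diet in 6 of the 10 genes, and normal mouse 1 the sole highest of its diet in 6. After each diet's mean was subtracted, Abcb1a (Pearson's r = 0.84) and Esam (0.80) followed the mean of the other 9 genes most closely over the 8 mice, and Ocln (-0.06) least. The genes outside the set most like the mean of the 10 genes by the same measure were Lamc1 (0.98), Ppp1r10 (0.97), Trim25 (0.97), Cd300d (0.96) and Zcchc8 (0.95), picked as the highest of all genes tested. Lamc1 encodes a laminin chain of basement membranes and was at 8, 7.4, 7 and 6.5 FPKM in normal mice and 6.9, 6.7, 7.1 and 6.3 in HFD mice (limma, adjusted p = 0.361). Ppp1r10 rose by 0.33 and Trim25 fell by 0.61 on the log2 scale (limma, adjusted p of 0.00544 and 0.0184). Cd300d and Zcchc8 did not pass (limma, adjusted p of 0.117 and 0.403). These likenesses are descriptions, since all genes of a mouse share its library and dissection.

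Further genes of the vessels and their barrier were grouped by role in 6 lists of 144 genes, of which 116 were tested. Of these 28 fell (24.1%), 10 rose (8.62%) and 78 did not pass, against 15.3% and 17.7% of all genes tested. With a ratio of over 1.5 required as well, 8 of the 116 were lower and 1 higher, against 2.9% and 4.23% of all genes tested. The median log2 difference was -0.08. Without normal mice 2 and 3 the counts were 14 lower and 4 higher, and the calls over all genes went from 4626 to 2736. Leaving out normal mouse 2 gave 18 lower, and leaving out normal mouse 3 gave 6 higher, with 3292 and 3625 calls over all genes. Several of these genes are expressed by astrocytes, neurons or oligodendrocytes as well.

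Of 11 tight junction genes 5 fell and 2 rose (45.5% and 18.2%), against 15.3% and 17.7% of all genes tested. Cgnl1 (paracingulin, a cytoplasmic junction protein) fell from 4.3, 6.2, 7 and 4.3 FPKM in normal mice to 3, 3.1, 2.8 and 3.5 in HFD mice, a log2 difference of -0.77 (limma, adjusted p = 0.00719). Its highest values were in normal mice 2 and 3. Jam2, a junctional adhesion molecule, fell from 10.875 ± 0.512 to 8 ± 0.572 FPKM (log2 difference -0.44; limma, adjusted p = 0.00171). Lsr, an organizer of the junctions where several cells meet, fell by 0.45 on the log2 scale, and Cldn12, another claudin, fell by 0.20 (limma, adjusted p of 0.0261 and 0.0125). Cldn1 rose from 1.1, 1.3, 1 and 1 FPKM in normal mice to 2.1, 1.8, 1.2 and 3 in HFD mice, with overlap of the diets (limma, adjusted p = 0.0359). Mpdz, a scaffold protein, rose by 0.13 on the log2 scale (limma, adjusted p = 0.0499). The scaffold Tjp1, which ties claudins and occludin to actin, had a log2 difference of 0.02 and did not pass (limma, adjusted p = 0.757). Marveld2 was not analysed here.

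Of 13 adhesion genes 4 fell and 1 rose (30.8% and 7.69%), against 15.3% and 17.7% of all genes tested. Mcam, a receptor of endothelium and mural cells, fell from 11.1, 12, 12.6 and 9.2 FPKM in normal mice to 5.2, 6.7, 6.1 and 6.1 in HFD mice, without overlap and with a log2 difference of -0.88 (limma, adjusted p = 0.0009). Cd93 fell from 2.175 ± 0.386 to 1.325 ± 0.05 FPKM and Icam2 fell from 1.8 ± 0.356 to 1.225 ± 0.189 (limma, adjusted p of 0.00719 and 0.0499). Podxl, a sialomucin of the luminal surface, rose from 4.625 ± 0.189 to 6.4 ± 0.455 FPKM (log2 difference 0.46; limma, adjusted p = 0.00201). Among the partners of VE-cadherin Ctnnb1 fell by 0.17 on the log2 scale (limma, adjusted p = 0.0399), and Ctnnd1 (0.19) and the phosphatase gene Ptprb (-0.14) did not pass.

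Of 18 genes of VEGF and angiopoietin signalling 6 fell (33.3%) and 0 rose in limma, against 15.3% and 17.7% of all genes tested. With an unadjusted p below 0.05, 2 were higher. The share of all genes tested at that unadjusted p was not computed. Apln, a peptide made by sprouting endothelium and other brain cells, fell from 11.475 ± 1.03 to 7.425 ± 1.46 FPKM (log2 difference -0.64; limma, adjusted p = 0.0048). Vegfa, a ligand of Flt1, was at 22, 31.7, 28.8 and 20.5 FPKM in normal mice and 19.3, 19.6, 17.3 and 14.8 in HFD mice. It fell by 0.52 on the log2 scale (limma, adjusted p = 0.0225), and its highest values were in normal mice 2 and 3. Vegfc fell from 1.725 ± 0.206 to 1.15 ± 0.208 FPKM, and Tie1, the partner receptor of Tek, fell from 3.125 ± 0.395 to 2.475 ± 0.0957 (limma, adjusted p of 0.0261 and 0.0418). The Flt1 ligands Vegfb and Pgf had log2 differences of 0.25 and -0.0021, the receptors Kdr and Nrp1 of -0.19 and 0.19 and the Tek ligand Angpt1 of -0.49, and these 5 genes did not pass. Angpt2 was not analysed here.

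Of 24 transporters and permeability genes 6 fell and 6 rose (25% each), against 15.3% and 17.7% of all genes tested. Slc38a5, a glutamine carrier, fell from 1.9 ± 0.424 to 0.85 ± 0.208 FPKM (log2 difference -1.07; limma, adjusted p = 0.00613). Tfrc, the transferrin receptor, fell from 40.4, 33.3, 40 and 39.7 FPKM in normal mice to 25.7, 27.1, 26.1 and 25.2 in HFD mice without overlap, a log2 difference of -0.55 (limma, adjusted p = 0.000827). Slc6a6 (taurine carrier) and Lrp1 (a lipoprotein and scavenger receptor) rose by 0.28 and 0.26 on the log2 scale (limma, adjusted p of 0.00892 and 0.00724), and neurons or glia express both as well. The glucose carrier Slc2a1 was at 22.7 ± 3.91 FPKM in normal and 22.7 ± 2.05 in HFD mice and did not pass (limma, adjusted p = 0.95), and was chosen for mention after its values were seen.

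Of 24 genes of Wnt signalling and barrier transcription factors 2 fell and 1 rose (8.33% and 4.17%). Over all genes tested the shares were 15.3% and 17.7%. Wnt7a, a ligand that induces barrier properties, fell from 3.4, 7, 8.4 and 5 FPKM in normal mice to 3.1, 3.6, 3.1 and 3.2 in HFD mice, with overlap and with its highest values in normal mice 2 and 3 (log2 difference -0.78; limma, adjusted p = 0.0307). Tspan12, a co-receptor of the norrin pathway, fell from 8.525 ± 0.206 to 6.35 ± 0.443 FPKM without overlap (log2 difference -0.42; limma, adjusted p = 0.00184). Axin2, a general target of Wnt signalling, rose from 8.275 ± 0.222 to 10.525 ± 0.737 (log2 difference 0.34; limma, adjusted p = 0.00371).

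Of 27 other endothelial markers 5 fell (18.5%) and 0 rose in limma, against 15.3% and 17.7% of all genes tested. With an unadjusted p below 0.05, 2 were higher and 8 lower. The share of all genes tested at that unadjusted p was not computed. Nostrin, a regulator of nitric oxide synthase, fell from 2.775 ± 0.591 to 1.575 ± 0.126 FPKM (limma, adjusted p = 0.00522). Ednrb, an endothelin receptor also found in astrocytes, fell from 19.075 ± 3.79 to 11.7 ± 0.753 (limma, adjusted p = 0.00404). Emcn, a sialomucin of endothelium, fell from 4.1, 5, 5.6 and 3.6 in normal mice to 3.6, 3.3, 2.5 and 3 in HFD mice, with the diets meeting at the same lowest normal and highest HFD value (limma, adjusted p = 0.0251).

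**Figure D5:**
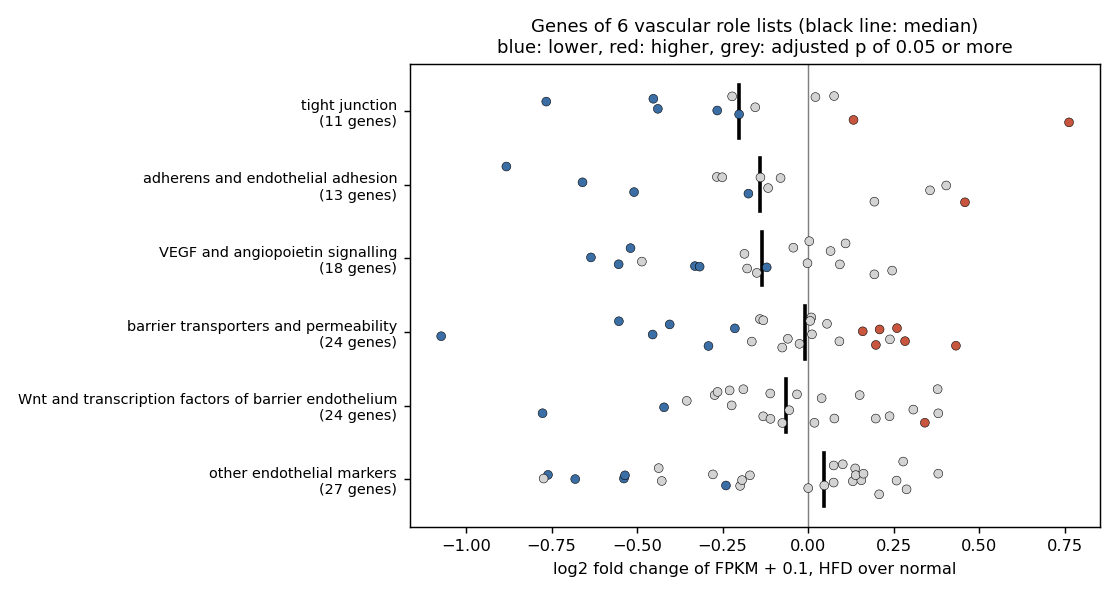
Log2 difference of FPKM + 0.1 (HFD minus normal) for the tested genes of 6 vascular role lists (1 point per gene, lines for medians). The tight junction list has the lowest median (-0.20). The transporter list has 6 of 24 genes lower and 6 higher past the adjusted threshold, against 15.3% and 17.7% of all genes tested.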

How the data were processed

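The cortex of 4 normal and 4 HFD mice was sequenced, 1 library per mouse. Low-quality sequence was removed (Trimmomatic) and reads were mapped to mm10 (STAR), and the authors computed the deposited FPKM values with Cuffnorm on the basic GENCODE M17 annotation. Tool versions are not stated. FPKM are rounded to 0.1 and sum to 562431 to 639142 per mouse, so the depth is unknown and no counting interval is given.

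Log2(FPKM + 0.1) was fitted with limma 3.58.1 in R 4.3.3 (variance trend, two-sided) on the 13982 genes averaging 1 FPKM or more with no 0, with Benjamini-Hochberg adjustment at 0.05 and 95% intervals. Differences on this scale understate those of low genes. The p-values measure the spread between mice. The fit was tested on simulated data with independent noise in each gene, which leaves out effects that the genes of a mouse share. Alternatives were added constants of 0.5 and 1, no filter, a mean of at least 5 FPKM, median-of-ratios and quantile scaling, no trend, a replicate block, each mouse left out, and normal mice 2 and 3 left out. The median log2 difference of all genes was 0.0031, and -0.0033 and -0.0061 after the rescalings.

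The 10 genes and the lists were chosen with earlier results of these data known. Named from a role list are the 3 largest calls in each direction and the ligands, receptors, paralogs or partners of the 10 genes, from lists of other cells defining markers, and the 5 genes most correlated with the mean of the 10 genes. Some genes that this rule names are counted but not reported here by name. Positions are from GENCODE M21 (GRCm38), where Cldn5 has a later ID version. Tables and figures used Python 3.11.15, pandas 2.3.3 and matplotlib 3.10.9.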

Additional observations from a re-analysis of the deposited data

Results flagged for a closer look

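In 3 of 20 groups of 4 mice (the 10 genes on each diet), 1 mouse stood apart from the others by Dixon's test at the 95% level, and chance gives about 1 such group in 20. Normal mouse 1 was high in Cldn5 (26.4 FPKM, a gap of 0.933 of the range) and in Slco1a4 (16.4 FPKM, 0.897 of the range). HFD mouse 4 was low in Cdh5 (2.5 FPKM, 0.9 of the range). Cldn5 and Slco1a4 stayed past the adjusted threshold without normal mouse 1, and Cdh5 passed neither with nor without HFD mouse 4.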

How the results depend on the processing

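The 10 genes gave 167 pairs of gene and alternative. In 144 the direction and the side of the threshold held, in 13 a call was lost, in 3 Tek passed and in 7 the sign turned. Cldn5 and Slco1a4 passed under each alternative run. The count of members that rose, 1, was 0 without normal mice 2 and 3, 0 with a ratio of over 1.5 between the diets required, and 0 to 1 with a mouse left out. The count that fell, 4, was 1 with that ratio required and 3 to 4 with a mouse left out. Calls over all genes also went from 4626 to between 3292 and 4618 with a mouse left out. In the role lists, 28 lower became 18 at a mean of at least 5 FPKM (fewer genes tested), 14 without normal mice 2 and 3, and 18 to 31 with a mouse left out. The 10 higher became 4 without normal mice 2 and 3, and 6 to 12 with a mouse left out. The cause was not tested. Signs turned for genes near 0. Cdh5 was at 0.04 without normal mouse 1 or 3, at 0.11 without HFD mouse 4 (-0.081 to 0.11 over mice left out) and at 0.044 without normal mice 2 and 3. Pecam1 was at 0.0063 without HFD mouse 4 (-0.12 to 0.01). Flt1 was at 0.019 without normal mouse 2 (-0.10 to 0.019) and at 0.0089 without normal mice 2 and 3.

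What the replicate numbers stand for is not stated. Same-numbered mice of the diets deviated with correlations across genes of -0.11 to -0.03. With the replicate number as a block, 3 members fell, 0 rose, 20 and 9 role-list genes were lower and higher, and 3390 of all genes were called against 4626. Sequencing depth is unknown, and rounding to 0.1 FPKM limits the precision of the lowest genes.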

Other observations

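The wall of brain vessels also holds pericytes, smooth muscle and, on larger vessels, fibroblasts. Of 9 pericyte markers 1 fell and 1 rose (11.1% each), against 15.3% and 17.7% of all genes tested. Cspg4 rose from 3.05 ± 0.129 to 3.975 ± 0.0957 FPKM (log2 difference 0.37; limma, adjusted p = 0.00493). Rgs5, a regulator of G proteins, fell from 34.3, 30.5, 27.2 and 27 FPKM in normal mice to 23.1, 25.4, 24.8 and 24.8 in HFD mice (log2 difference -0.27; limma, adjusted p = 0.0243). Pdgfrb, the pericyte receptor for platelet-derived growth factor, was at 5.875 ± 0.75 and 5.65 ± 0.526 and did not pass. Of 5 smooth muscle markers, among them Acta2 and Tagln, 0 fell and 0 rose in limma, and 0 had an unadjusted p below 0.05. Of 10 fibroblast markers 4 fell (40%) and 0 rose in limma, with 1 higher at an unadjusted p below 0.05. That gene was Dcn, at 11.425 ± 3.08 FPKM in normal and 19.275 ± 6.56 in HFD mice (limma, adjusted p = 0.0635). The share of all genes tested with an unadjusted p below 0.05 was not computed. Among those that fell, Col1a1 went from 2.975 ± 0.275 to 1.8 ± 0.271 FPKM and Col1a2 from 5.625 ± 0.866 to 4.225 ± 0.386.

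Of 9 astrocyte markers 3 fell and 2 rose (33.3% and 22.2%), against 15.3% and 17.7% of all genes tested. Those that rose were Slc1a2 (log2 difference 0.25; limma, adjusted p = 0.0394) and Gjb6 (0.28; limma, adjusted p = 0.0204). Aqp4, the water channel of the endfeet that wrap capillaries, fell from 34, 50, 50.9 and 31.5 FPKM in normal mice to 23.7, 21.6, 19.3 and 23.6 in HFD mice, a log2 difference of -0.88 (limma, adjusted p = 0.00348). Its highest values were in normal mice 2 and 3. In the other lists, 8 of 8 myelin, 7 of 7 striatal, 4 of 6 tested cerebellar, 5 of 5 blood and 3 of 8 choroid plexus markers fell. Of 10 microglia and macrophage markers 1 rose. Over all genes tested 15.3% fell and 17.7% rose.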
